A study of Saccharomyces cerevisiae with 15 samples.

Results

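The long terminal repeats (LTRs) of yeast retrotransposons, and the intergenic regions beside them, were followed through a chromatin immunoprecipitation study of the transcription factor Fhl1 and its coactivator Ifh1. Members were all array probes whose name contains delta, sigma, tau or omega, the names of the repeat families: 392 of 6803 probes. Of these, 140 carry the name of the repeat itself, and 252 have the same name after the letter i, which the array gives to the region beside it. The 392 probes name 253 distinct repeats on 16 chromosomes. Delta repeats made up most of the set, with 114 repeat and 207 flank probes. There were 4 repeat and 13 flank probes for sigma, 17 and 22 for tau, and 5 and 10 for omega.

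Ty elements are retrotransposons that copy themselves through RNA and are framed at both ends by an LTR, which holds the promoter of the element. Recombination between the 2 LTRs of an element leaves a solo LTR behind, and most LTRs of the genome are such remnants. Delta repeats belong to Ty1 and Ty2, sigma repeats to Ty3, tau repeats to Ty4 and omega repeats to Ty5. Ty1, Ty2, Ty3 and Ty4 usually insert upstream of genes transcribed by RNA polymerase III, such as tRNA genes, and Ty5 prefers silent chromatin. Fhl1 is a forkhead-type factor of ribosomal protein (RP) gene promoters, where it recruits Ifh1. Rapamycin inhibits the TOR kinase, which couples ribosome production to nutrients.

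Each of the 15 arrays compared, in 2 colours, DNA precipitated with an antibody to the myc epitope from a tagged W303 strain with that from untagged W303. The tagged strains were W303+FHL1-13myc-HIS3MX6 and W303+IFH1-13myc-TRP1MX6, grown in YPD at 30 °C to log phase. The groups were Fhl1 untreated (3 arrays), Fhl1 with rapamycin at 200 ng/mL (5), Ifh1 untreated (4) and Ifh1 with rapamycin at 200 ng/mL (3). The labels call the replicates biological but do not say whether arrays share a preparation of untagged cells, nor whether the untagged cells of the rapamycin arrays were treated. How long the drug acted is not given in the labels used here.

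Values are log2 ratios after each array was centred on its median. Per the labels, 1 array of every condition had its dyes exchanged, but which one it was is left unsaid, as is the strain that forms the numerator. The median of the 77 large-subunit RP promoters lay 0.64 to 1.70 from the array median on 12 arrays, above it on 5 and below it on 7. Those 12 arrays were therefore turned so that this median was positive, and values so treated are called turned; no LTR probe took part in the choice. By this rule 2 of 3 arrays were turned with Fhl1 untreated, 3 of 5 with Fhl1 rapamycin and 2 of 4 with Ifh1 untreated. The last 2 splits do not match 1 exchanged array per condition, so every turned value carries that doubt, and values as deposited are given beside the main ones. On the 3 Ifh1 rapamycin arrays the RP median lay at 0.01, -0.08 and -0.04, so their side is not settled, and their turned values have an arbitrary sign. As a reference for a bound promoter, RPL42B/CHS7 lay at 2.46 ± 0.47 (mean ± SD, n = 3), 2.15 ± 0.43 (n = 5), 2.15 ± 0.28 (n = 4) and 0.51 ± 0.25 (n = 3) in the 4 groups in the order above. This promoter is among the 77 that set the side of each array, so its positive sign is in part fixed by the turning. Before centring, the array medians ran from -1.31 to 1.74, and each group held arrays with a median above 1, below -0.5 and in between.

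As a class, LTRs lay close to the array median with either protein, with and without rapamycin. The median of all 392 probes, turned, was -0.01 ± 0.04 with Fhl1 untreated (n = 3), 0.003 ± 0.12 with Fhl1 rapamycin (n = 5), 0.05 ± 0.08 with Ifh1 untreated (n = 4) and 0.02 ± 0.09 with Ifh1 rapamycin (n = 3). In each group the mean was smaller than the SD over arrays. With the signs as deposited, the median was 0.06 ± 0.06 over the 15 arrays, ran from -0.05 to 0.16, and lay above 0 on 13 of them. It was 0.02 ± 0.03, 0.09 ± 0.06, 0.06 ± 0.08 and 0.06 ± 0.05 in the 4 groups. These shifts are small beside those of the RP promoters, whose deposited median lay above 0 on 6 of the 15 arrays.

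**Figure D1:**
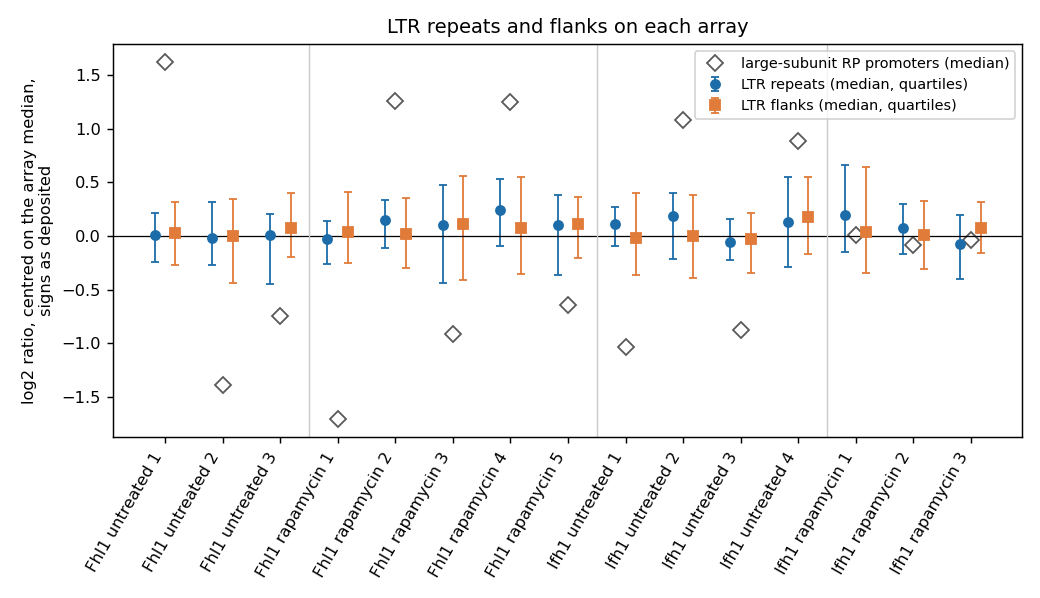
Centred log2 ratio (vertical axis, signs as deposited) on each of the 15 arrays (horizontal axis); points are medians of 140 LTR repeat and 252 flank probes, bars their quartiles, and diamonds the median of 77 large-subunit RP promoters. LTR medians stay between -0.08 and 0.24 on every array while the RP promoters lie 0.64 to 1.70 from 0 on 12 of them.

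Delta repeats and delta flanks lay close together, with 1 group in which the small difference was larger than its SD. Delta repeats minus delta flanks, taken as the difference of their medians on each array, was 0.05 ± 0.11 as deposited and above 0 on 8 of 15 arrays. By group this difference was -0.05 ± 0.04 with Fhl1 untreated, 0.07 ± 0.08 with Fhl1 rapamycin, 0.09 ± 0.12 with Ifh1 untreated and 0.04 ± 0.18 with Ifh1 rapamycin. On the turned arrays the 4 group means ran from 0.002 to 0.09. Only with Fhl1 untreated did the deposited difference have 1 sign on all arrays of a group, below 0 on each of the 3 and larger than its SD; turned, it was 0.05 ± 0.05 there.

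Turned group medians of the repeat families ran from -0.21 to 0.28, with more scatter where few probes carry a family. Delta repeats had turned group medians of 0.02 ± 0.05, 0.04 ± 0.17, 0.07 ± 0.15 and 0.06 ± 0.15 in the order Fhl1 untreated, Fhl1 rapamycin, Ifh1 untreated and Ifh1 rapamycin. Tau repeats, from Ty4, lay at -0.05 ± 0.39, 0.05 ± 0.05, -0.02 ± 0.05 and 0.18 ± 0.12. The 5 omega repeats of Ty5 lay at 0.03 ± 0.20, 0.02 ± 0.25, 0.26 ± 0.20 and -0.21 ± 0.21. With Ifh1 untreated the turned omega median lay above 0 on 4 of 4 arrays. As deposited it lay above 0 on 2 of those 4, with a mean of -0.13 ± 0.33. The 4 sigma repeats of Ty3 lay at 0.12 ± 0.15, 0.06 ± 0.28, 0.28 ± 0.12 and 0.12 ± 0.10. Their turned median lay above 0 on 9 of the 12 arrays with a settled side, including 4 of 4 with Ifh1 untreated. As deposited it lay above 0 on 8 of those 12 and on 2 of those 4. With Ifh1 rapamycin, where the turned sign is arbitrary, its deposited mean was -0.10 ± 0.13. Sigma flanks, 13 probes beside such repeats, lay at 0.10 ± 0.04, -0.09 ± 0.21, 0.004 ± 0.25 and 0.16 ± 0.31, with both signs among the groups. Tau flanks lay at -0.05 ± 0.22, -0.08 ± 0.10, 0.09 ± 0.13 and -0.05 ± 0.10. Omega flanks lay at -0.10 ± 0.26, -0.17 ± 0.35, -0.04 ± 0.22 and -0.11 ± 0.34. Differences between flanks and repeats of these families were not tested.

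Within tau, the repeat with the highest mean over the 12 turned arrays was YELCtau1 (0.46) and the lowest YGLCtau3 (-0.47). Among tau flanks, means ran from -0.24 at iYGLCtau3 to 0.34 at iYJLWtau4. For omega the repeats ran from -0.07 at YERComega1 to 0.11 at YERWomega2, and the flanks from -0.55 at iYCLWomega2-0 to 0.09 at iYERWomega2-1. The full range of these means was -0.74 to 0.56 for delta repeats, -0.68 to 0.56 for delta flanks, 0.04 to 0.25 for sigma repeats and -0.37 to 0.34 for sigma flanks. In these 12-array means no family reached the level of the RPL42B/CHS7 promoter, which was chosen as a high reference. The median of the large-subunit RP promoters on these arrays was 1.12 ± 0.33, and the arrays were turned by it. In a single group an LTR probe could lie near that median. With Ifh1 untreated, iYHRWdelta7 lay at 0.96 and the large-subunit RP promoters at 0.97.

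Probe by probe, no LTR passed the test against the array median in any group. limma called 0 of 392 LTR probes at an adjusted p under 0.05 with Fhl1 untreated, where 0.661% of all probes were called, 0 with Fhl1 rapamycin (0.97%), 0 with Ifh1 untreated (0.353%) and 0 with Ifh1 rapamycin (0.0%). With the signs as deposited it also called 0 LTR probes in each group, and 12, 26, 17 and 22 had an unadjusted p under 0.05, which is 3.06%, 6.63%, 4.34% and 5.61% of members, where 4.03%, 5.29%, 6.31% and 3.66% of all probes did. With these signs the members' share was above the background in both rapamycin groups. For the difference between drug and no drug it was under the background, at 1.79% against 3.19% for Fhl1 and 1.79% against 3.2% for Ifh1. On turned arrays, 12 LTR probes had an unadjusted p under 0.05 with Fhl1 untreated (3.06% of members, against 5.2% of all probes), 24 with Fhl1 rapamycin (6.12% against 7.03%), 24 with Ifh1 untreated (6.12% against 7.36%) and 21 with Ifh1 rapamycin (5.36% against 5.26%). These turned shares lay near or under those of all probes. The latter include the large-subunit RP promoters that set the side of each array, so they are not a neutral background. Shares without RP promoters are not given here. The same holds for the called shares above and for every later share of all probes on turned arrays. Both sides were represented, with 6 higher and 6 lower, 14 and 10, 13 and 11, and 14 and 7.

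The LTR probe nearest to a call was iYHRWdelta7, the region beside a delta repeat of chromosome 8. Its turned log2 ratio was 1.15, 0.58, 0.69 and 1.43 with Ifh1 untreated, 0.43, 0.58 and 1.17 with Fhl1 untreated, 0.78, 0.08, 0.10, -0.40 and 0.12 with Fhl1 rapamycin, and 0.25, 0.54 and 0.56 with Ifh1 rapamycin. It lay above the median on 11 of the 12 turned arrays, all but Fhl1 rapamycin replicate 4. With Ifh1 untreated it lay at 0.96 ± 0.40 (SE of the limma fit 0.22, n = 4), and the limma adjusted p was 0.0822. As deposited its mean in that group was 0.04 (limma adjusted p = 0.989), so the distance from 0 rests on how the arrays were turned. No LTR probe lay on 1 side of the median on all 12 turned arrays, against 1.31% of all probes (89, of which 77 were among the 127 RP promoters). Large-subunit RP promoters set the side of each array, so this share is not a neutral background for the members.

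With Fhl1 untreated the lowest p belonged to iYCRCdelta14, beside a delta repeat of chromosome 3. It lay at -2.33, -2.14 and -1.02 on the 3 arrays, below the median on each. It also lay low on Ifh1 untreated replicate 2 (-2.25) and on Ifh1 rapamycin replicate 1 (-2.49), while the other arrays of those groups lay between -0.70 and 0.28. The mean with Fhl1 untreated was -1.83 ± 0.71 (SE 0.50, limma adjusted p = 0.176, n = 3), and as deposited it was 0.28. Next came iYDLCdelta1-0 (-0.89, -0.88 and -0.43; limma adjusted p = 0.476) and iYMRWdelta16 (1.18, 1.02 and 0.69; limma adjusted p = 0.533), also delta flanks with all 3 arrays on 1 side. None of them passed.

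With Fhl1 rapamycin, iYPRCdelta19, a delta flank of chromosome 16, lay at 0.70, 0.96, 1.71, 1.20 and 0.63. All 5 arrays were above the median, while the 3 untreated Fhl1 arrays lay at -0.04, -0.82 and -0.57, with no overlap. Its mean was 1.04 ± 0.44 (SE 0.31, limma adjusted p = 0.23, n = 5). The sigma flank iYPRWsigma4, on the same chromosome, lay at -1.64, -0.32, -1.13, -1.59 and -0.50, below the median on each of these arrays (-1.04 ± 0.61, SE 0.34, limma adjusted p = 0.344). The omega flank iYCLWomega2-0 lay at -0.64, -1.12, -0.95, -1.29 and -0.28 (-0.86 ± 0.40, SE 0.30, limma adjusted p = 0.443). As deposited the 3 means were -0.18, 0.27 and -0.11.

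**Figure D2:**
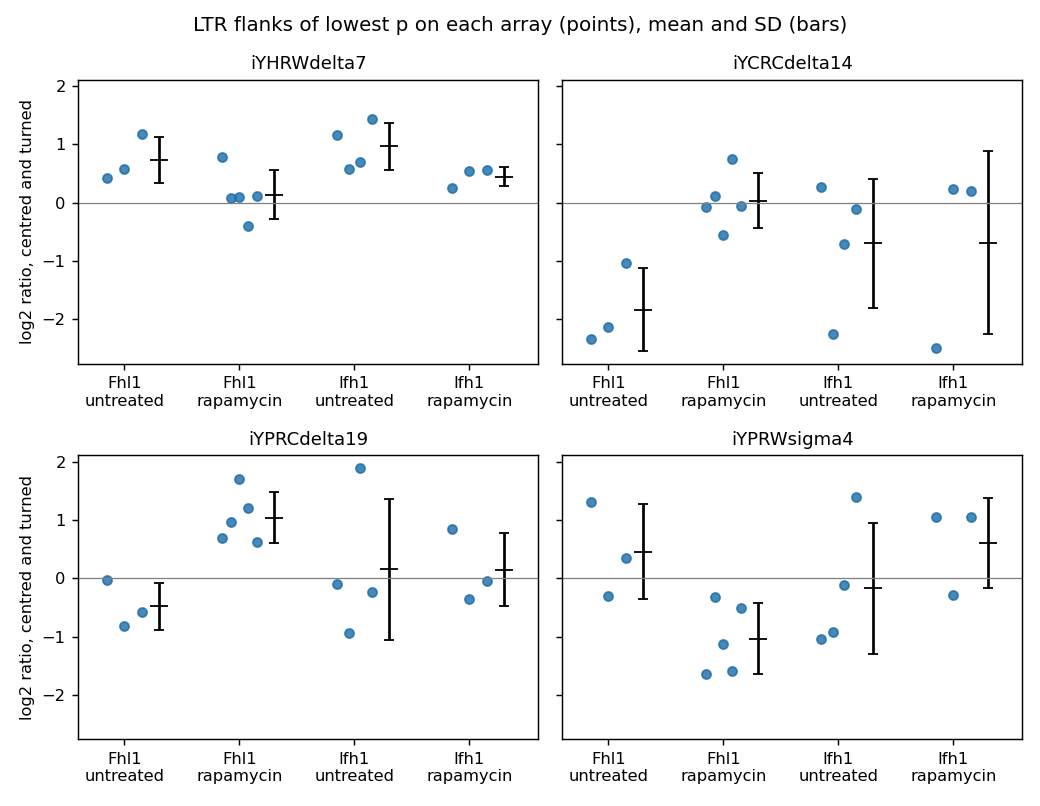
Turned, centred log2 ratio (vertical axis) of 4 LTR flank probes in the 4 groups; each point is an array, and bars give the mean and SD. iYHRWdelta7 lies above 0 on 11 of the 12 turned arrays and iYPRCdelta19 on 5 of 5 Fhl1 rapamycin arrays, and neither passes the limma test; signs of the Ifh1 rapamycin arrays are arbitrary.

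With Ifh1 untreated, 2 delta repeats followed iYHRWdelta7 in p. YKRWdelta10 lay at -1.59, -0.84, -0.48 and -1.02, below the median on all 4 arrays (-0.99 ± 0.46, SE 0.29, limma adjusted p = 0.27). YIRCdelta6 lay at -0.06, -1.60, -0.35 and -6.84, with replicate 4 far below the other 3, for a mean of -2.22 (SE 0.73, limma adjusted p = 0.381); without replicate 4 the fitted mean was -0.67. With Ifh1 rapamycin the lowest p were those of YDRWdelta30 (0.50, 1.68 and 1.81), iYILCdelta5-1 (-1.67, -0.12 and -0.75) and YHRCdelta12 (2.56, 0.90 and -0.23), each with a limma adjusted p of 0.842. Their means depend on how these 3 arrays are turned. Over the 8 ways of turning them the mean of YDRWdelta30 ran from -1.33 to 1.33.

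No effect of rapamycin on LTR probes passed the test with either protein. limma called 0 of 392 between rapamycin and untreated arrays of Fhl1 (0.0% of all probes) and 0 for Ifh1 (0.0147%). At an unadjusted p under 0.05 there were 10 LTR probes for Fhl1 (2.55%, against 3.57% of all probes) and 21 for Ifh1 (5.36%, against 6.04%). With deposited signs both counts at that p were 7 (3.19% and 3.2% of all probes). The median change over the LTR probes was 0.01 for Fhl1 and -0.01 for Ifh1, beside 0.01 and 0.01 over all probes. Groups did not overlap at 4 LTR probes higher and 3 lower with the drug for Fhl1 (1.44% and 1.21% of all probes in the same directions), and at 11 higher and 25 lower for Ifh1 (3.59% and 4.67%). For Ifh1 the lower count is 6.38% of the members, though the drug-treated arrays carry an arbitrary sign.

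The LTR probes with the lowest p for the drug were mostly delta flanks. For Fhl1 they were iYKLWdelta7 (0.29, 0.26 and 1.14 untreated; -0.46, -1.06, -1.02, -0.71 and -0.01 with the drug), iYPRCdelta19 and iYCRCdelta14. Their changes were -1.21 (SE 0.37), 1.51 (SE 0.51) and 1.86 (SE 0.63), each with a limma adjusted p of 0.999. For Ifh1, iYILCdelta5-1 went from 0.48, 1.33, 0.78 and 0.12 untreated to -1.67, -0.12 and -0.75 (change -1.52, SE 0.40, limma adjusted p = 0.463). YJLCdelta6 (change 1.35, SE 0.41) and iYJLWdelta8 (change -1.33, SE 0.46) had limma adjusted p of 0.589 and 0.71. None of these changes passed, and those for Ifh1 rest on drug-treated arrays whose sign is arbitrary.

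No difference between Fhl1 and Ifh1 at LTRs passed the test in either condition. limma called 0 LTR probes between Ifh1 and Fhl1 in untreated cells (0.0% of all probes) and 0 with rapamycin (0.0735%), with 9 and 16 at an unadjusted p under 0.05 (2.3% and 4.08% of members, against 4.13% and 5.51% of all probes). With deposited signs these counts were 6 (3.57% of all probes) and 9 (3.01%). Groups did not overlap at 14 LTR probes higher and 6 lower with Ifh1 untreated (2.47% and 2.63% of all probes), and at 6 higher and 8 lower with rapamycin (1.63% and 2.7%). In untreated cells the lowest p were at iYOLCdelta2, YHRWtau3 and iYDLCdelta1-0, with differences of -1.30 (SE 0.46), -0.998 (SE 0.35) and 0.79 (SE 0.33) and a limma adjusted p of 0.997 each. YHRWtau3, a tau repeat, lay at 0.77, 0.01 and 0.40 with Fhl1 and at -0.07, -1.19, -0.43 and -0.73 with Ifh1, without overlap. With rapamycin they were YDRWdelta30 (1.63, SE 0.49, limma adjusted p = 0.582), YHRCtau4 (1.55, SE 0.48, adjusted p = 0.593) and iYPRWsigma4 (1.64, SE 0.55, adjusted p = 0.656). All rapamycin values of this comparison rest on Ifh1 rapamycin arrays of arbitrary sign, so their direction is not settled.

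A difference of the drug effect between the proteins passed the test at no LTR probe. For this interaction limma called 0 of 392 (0.0% of all probes), with 15 at an unadjusted p under 0.05 (3.83%, against 4.37%) and 8 with deposited signs (3.41% of all probes). The lowest p were those of YHRWtau3 (1.47, SE 0.48), iYOLCdelta2 (1.88, SE 0.63) and iYDRWdelta31 (-2.34, SE 0.81), with a limma adjusted p of 0.984 each. These values too depend on the arbitrary sign of the Ifh1 rapamycin arrays. Arrays of 1 group differed widely at the last of these: iYDRWdelta31 lay at 0.30, -2.28 and -0.07 with Fhl1 untreated.

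Pooling arrays gave more precision and still no call at an LTR. With the 12 turned arrays as 1 mean, limma called 0 LTR probes, against 1.54% of all probes, and 25 had an unadjusted p under 0.05 (6.38%, against 8.0%). With the deposited signs of the same 12 arrays 0 were called, and 52 had an unadjusted p under 0.05, which is 13.3% of members, where 10.5% of all probes did. Nearest was iYHRWdelta7 at 0.56 (SE 0.16, limma adjusted p = 0.128), followed by YHRCdelta5 (0.56, SE 0.19, limma adjusted p = 0.335; above 0 on 8 of 12 arrays) and iYORCdelta25 (0.37, SE 0.13, limma adjusted p = 0.37; above 0 on 10 of 12). With the 15 arrays as deposited, 0 were called (0.0% of all probes), and 59 had an unadjusted p under 0.05, which is 15.1% of members against 12.1% of all probes. Of the 59, 42 lay above the median and 17 below it. The lowest p belonged to iYHRCdelta16-B (0.51, SE 0.12, above 0 on 13 of 15 arrays), iYELCtau1 (-0.48, SE 0.12, above 0 on 3) and iYILCdelta3 (-0.47, SE 0.12, above 0 on 2), with a limma adjusted p of 0.181 each.

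LTR repeats were more alike among themselves than other probes of the same array. The median absolute deviation of the 140 repeats was 0.763 ± 0.202 of that of probes outside LTRs and RP promoters (n = 15 arrays) and below it on 12 arrays. It exceeded 1 on Fhl1 untreated replicate 3 (1.10), Fhl1 rapamycin replicate 5 (1.06) and Ifh1 rapamycin replicate 3 (1.04), which are 3 of the 4 arrays with a median below -0.5. For flanks the ratio was 0.910 ± 0.100, and it was below 1 on 13 arrays. By family, the 114 delta repeats had a ratio of 0.755 ± 0.237, below 1 on 12 of 15 arrays. The 17 tau repeats had 0.959 ± 0.336, below 1 on 10 of 15. For the 5 omega repeats it was 0.534 ± 0.366, below 1 on 13 of 15. Sigma repeats had a ratio of 0.416 ± 0.217, below 1 on 15 of 15, but number only 4. The 42 tRNA gene probes, from another multicopy family, had a ratio of 0.568 ± 0.160 and were below 1 on 15 of 15 arrays, a narrower spread than that of the LTR repeats. Over arrays, the median SD of a probe was 0.45 for repeats, 0.54 for flanks and 0.60 for other probes. Repeats of a family share sequence to differing degrees; no sequences were compared, and binding of DNA from other copies to a probe was not tested.

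**Figure D3:**
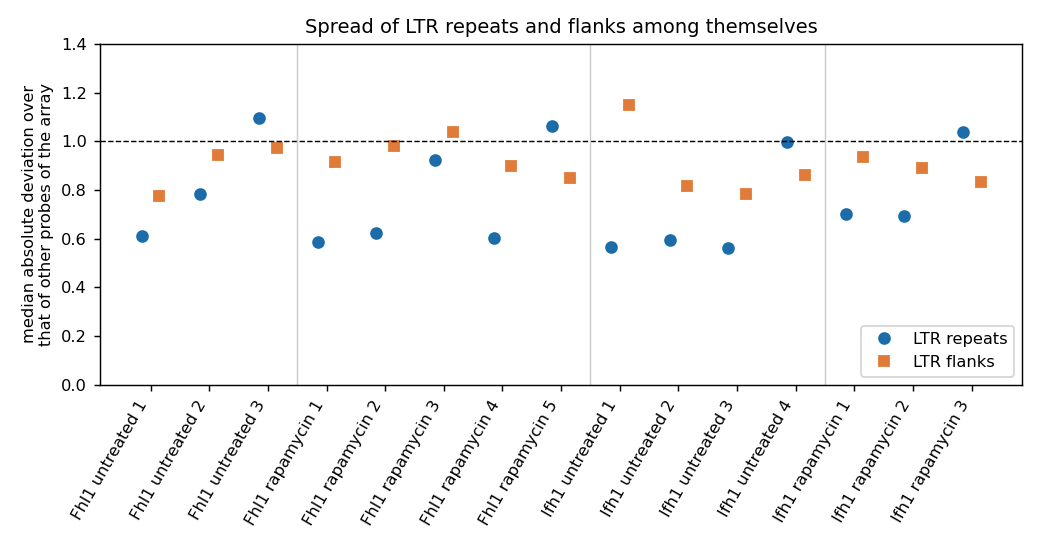
Median absolute deviation of LTR repeats and flanks on each of the 15 arrays, divided by that of probes outside LTRs and RP promoters on the same array (vertical axis, no unit; the dashed line is 1). Repeats lie below 1 on 12 arrays and flanks on 13.

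A repeat varied over the arrays more like its own flank than like other flanks of its family. For 121 pairs of a repeat and its own flank, from 106 repeats, the median Pearson r over the 15 arrays was 0.20, and 17 pairs (14.1%) had r above 0.5. For 23839 pairs with flanks of other repeats of the family the median was 0.01, with 5.16% above 0.5. After the means of the 3 ranges of array medians were taken out, the medians were 0.23 and 0.01. The pairs share arrays and many share probes, so these are descriptions. The highest values were at YALCdelta2 (0.84), YFLCdelta6 (0.80), YHRWtau3 (0.76) and YPLCdelta1 (0.75). Pieces of flanks cut into several probes ranged from unrelated to closely alike. Among 19 such flanks, with 52 probes, the median r between pieces was above 0.5 for 7, with 0.92 at YERWomega2, 0.91 at YERWdelta21 and 0.72 at YNLCdelta1. It was 0.18 at YHRCdelta14, 0.03 at YOLWtau1, 0.01 at YIRCdelta6 and -0.23 at YDRCdelta9. Pieces of YERWdelta21 and YNLCdelta1 are among the 13 delta probes that vary with the bodies of Ty1 and opposite to the array median.

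**Figure D4:**
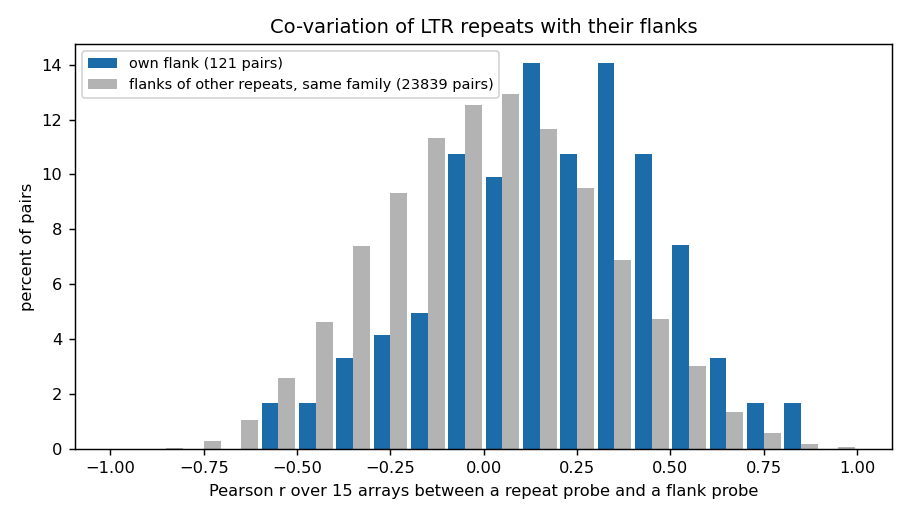
Distribution of Pearson r over the 15 arrays between LTR repeat probes and flank probes (horizontal axis), as percent of pairs (vertical axis), for 121 pairs of a repeat with its own flank and 23839 pairs with flanks of other repeats of its family. Own-flank pairs lie further to the right, with a median of 0.20 against 0.01.

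The LTR probes farthest from the array median ran opposite to the level of that median across arrays. The 5 with the largest median distance over the 15 arrays were YILCdelta5 (1.30), iYNLCdelta1-1 (1.17), iYDRCdelta9-0 (1.16), YOLWdelta6 (1.15) and iYNLCdelta1-2 (1.06). As deposited, YILCdelta5, a delta repeat of chromosome 9, lay at -2.89 to -0.93 on the 5 arrays with a median above 1, at 0.78 to 2.82 on the 4 with a median below -0.5, and at -0.11 to 1.47 on the 6 others. The first 2 sets of arrays did not overlap, and each holds arrays of all 4 groups. In all, 10 LTR probes were higher and 19 lower on each array of the first set than on each of the second (2.55% and 4.85% of members, against 2.07% and 4.28% of all probes), so such probes were about as frequent among LTRs as on the whole array.

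The 5 LTR probes of largest distance shared their pattern with the bodies of Ty1. The 12 probes of 3 Ty1 elements had a mean centred ratio of 1.22 on Fhl1 untreated replicate 3, whose median before centring was -1.31, and -1.12 on replicate 2, whose median was 1.15. Before centring, the Ty1 mean was -0.10 and 0.03 on these arrays, and it lay between -0.28 and 0.16 on 12 of the 15. On the other 3 it was 0.70 (Fhl1 rapamycin replicate 3), 0.64 (Ifh1 untreated replicate 4) and 0.36 (Ifh1 rapamycin replicate 2), all arrays with a median above 1, and the SD over the 12 probes was 0.42 to 0.53. The uncentred Ty1 mean thus moved less than the array median, and the centred mean ran opposite to it. Over the 15 arrays, 13 delta probes (3 repeats and 10 flanks) had r above 0.8 with the Ty1 mean, or 3.32% of the members against 2.31% of all probes. Of the 26 Ty body probes 11 did, all of them among the 12 Ty1 probes that make up this mean. No body probe of Ty2, Ty3, Ty4 or Ty5 did. Highest were the flank piece iYERWdelta21-2 (0.99), the repeat YDRWdelta12 (0.97) and the flank pieces iYERWdelta21-0 (0.94) and iYDRCdelta9-0 (0.93).

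The uncentred values of these 13 probes had an SD over arrays of 0.27 to 0.93, against 0.63 to 1.64 after centring, and each of the 13 was steadier before centring than after. This largely follows from how the 13 were picked, since the centred Ty1 mean ran opposite to the array median. It is therefore not a separate finding. Among all members, 26 of 392 were steadier before centring (6.63%), against 4.17% of all probes, 91.7% of the 12 Ty1 bodies and 0 of the 42 tRNA genes. The 5 members of largest distance belong to the 13, and none of them was called by limma in any group. The spot intensities behind the ratios were not used here.

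**Figure D5:**
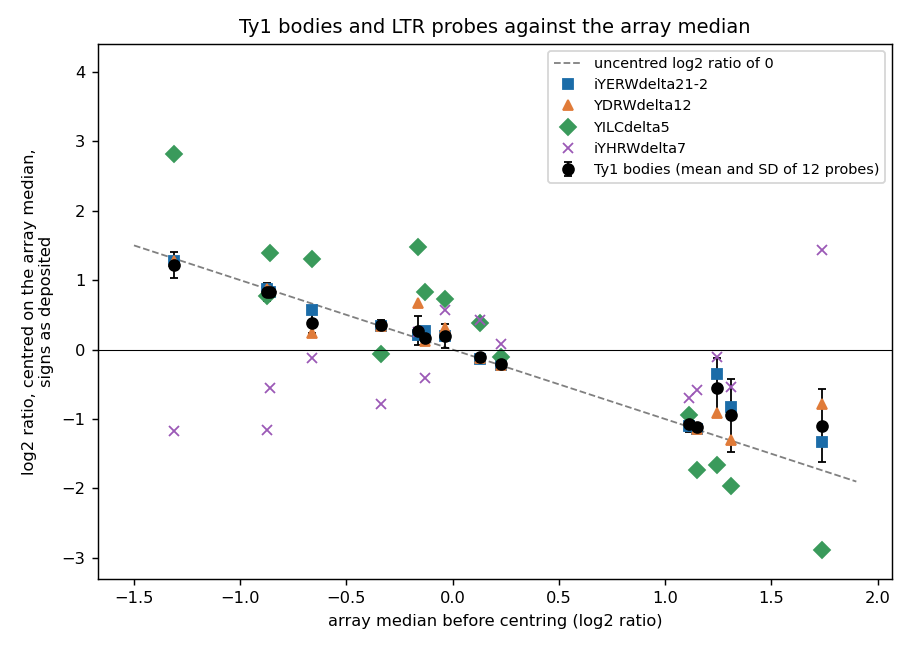
Centred log2 ratio (vertical axis, signs as deposited) against the array median before centring (horizontal axis, log2 ratio) on 15 arrays, for the mean and SD of 12 Ty1 body probes, the LTR probes iYERWdelta21-2, YDRWdelta12 and YILCdelta5 and, for contrast, iYHRWdelta7. The dashed line marks an uncentred log2 ratio of 0; Ty1 bodies and iYERWdelta21-2 stay close to it on most arrays and depart by up to 0.70 and 0.89 on arrays with a median above 1, and YILCdelta5 falls from 2.82 to -2.89.

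At LTRs, as deposited, arrays whose medians were far from 0 on the same side had a higher mean correlation than arrays of 1 group. Over the LTR probes, as deposited, the mean r between arrays of the same group was -0.03 (22 pairs) and between groups 0.05 (83 pairs). Between 2 arrays with a median above 1 it was 0.31 (10 pairs), between 2 with a median below -0.5 it was 0.21 (6 pairs), between 2 of the other 6 arrays it was 0.06 (15 pairs), and between an array above 1 and one below -0.5 it was -0.16 (20 pairs). The same means over other probes were -0.02, 0.03, 0.21, 0.19, 0.04 and -0.13. All of these correlations carry the deposited signs and have no test. Groups with a settled side each mix arrays that the RP rule kept and turned. The same-group mean therefore cannot show how alike the arrays of a group are.

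Promoters of genes that act on Ty elements were also near the array median. Of the cofactors of Ty integration and RNA polymerase III subunits, 23 of 25 genes had a probe (23 probes); of the transcription factors of Ty elements, 28 of 30 (31 probes); and of the host factors of Ty1 transposition, 22 of 26 (22 probes). limma called 0 of these probes higher or lower in each of the 4 groups and in the 5 differences. In the group fits the lowest limma adjusted p was 0.0652, at RPS17B/ADA2 with Fhl1 rapamycin (0.84, SE 0.20). In the mean of the 12 turned arrays this probe was the only one called (0.68, SE 0.13, limma adjusted p = 0.00681); it lies between ADA2, a SAGA complex subunit, and the small-subunit RP gene RPS17B. In the transcription factor list the lowest p with Ifh1 untreated was at SWI1, a SWI/SNF subunit (0.83, SE 0.28, adjusted p = 0.434 by limma). With Ifh1 rapamycin it was at FUS3, the mating kinase, which this list also holds (-0.96, SE 0.32, adjusted p = 0.842 by limma). Among host factors the lowest p with Ifh1 untreated was at BUD27 (0.75, SE 0.30, adjusted p = 0.614 by limma). In the list of integration cofactors and RNA polymerase III, the lowest p of the group fits was at RPC25/LTV1 with Ifh1 untreated. It lay below the median there (-0.98, SE 0.41, limma adjusted p = 0.614). With Fhl1 rapamycin the lowest p of this list was at RPC40, a polymerase subunit that Ty1 integrase binds (0.51, SE 0.23, limma adjusted p = 0.68).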

How the data were processed

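The deposited values are log2 ratios per probe, made by the authors from 2-colour arrays scanned with GenePix Pro 4.0, per the labels; the steps between scan and ratio and the array build are not stated in those sources, and spot intensities were not used. All 100% of values equal the log2 of a ratio with 3 decimals. Each array was centred on its median, without loess or quantile steps. limma 3.58.1 (R 4.3.3) fitted 4 group means to all 15 arrays (lmFit, eBayes), two-sided, with Benjamini-Hochberg adjustment over 6803 probes and a threshold of 0.05; the fit was tested on simulated data. Descriptions used Python 3.11.15, numpy 2.4.6 and pandas 2.3.3. Of the LTR probes, 391 had a value on all arrays; iYKLWdelta7 lacked 1 (Ifh1 untreated replicate 4). The number of arrays limits the precision. A simulated log2 change of 1 was called at 28% of changed probes with Fhl1 untreated, 57% with Fhl1 rapamycin and 41% with Ifh1 untreated. In the mean of 12 arrays it was called at 84%. For rapamycin minus untreated with Ifh1, a change of -1 was called at 9% and one of -2 at 58%. Absent calls therefore do not exclude changes of that size. The simulation drew noise independently for each array and took the side of each array as known. Changed probes had the same change in each group with a settled side. The simulated shares therefore do not cover the doubt about how the real arrays were turned.

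Members, lists and tests were chosen with earlier results of these data known. Named are, for each fit, the 3 members of lowest p, the 5 of largest median distance, the extremes of tau and omega, and the lowest p of each list. Members first named through Ty1, own-flank or piece correlations were chosen after their values were seen. Gene names came from the RefSeq table of R64, where 5307 of 5574 reading frames matched and 0 LTR probes did; a probe was assigned to genes whose 5′ ends face it. Alternatives were other centring, scaling, signs, filters, moderation, a replicate block and leaving out each array.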

Additional observations from a re-analysis of the deposited data

Results flagged for a closer look

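In 77 groups of 4 or 5 arrays examined at named members and LTR medians, 2 held 1 array far from the rest, where chance alone gives about 1 in 20. The tau repeat YHRWtau3 lay at -0.52 on Fhl1 rapamycin replicate 4, while the other 4 arrays lay between -0.06 and 0.08. The tau repeat YHRCtau4 lay at -2.14 on Fhl1 rapamycin replicate 5, while the others lay between -0.72 and -0.22.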

How the results depend on the processing

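The absence of calls at LTRs held under most alternatives. With arrays scaled to 1 median absolute deviation, 1 LTR probe was called with Fhl1 untreated (iYCRCdelta14, -1.88, limma adjusted p = 0.0487). Leaving out each array gave 0 to 1 calls for Fhl1 untreated, 0 to 1 for Fhl1 rapamycin, 0 to 1 for the 12 arrays as 1 mean, and 0 for the other 8 results. The calls were iYCRCdelta14 without Ifh1 rapamycin replicate 1 (adjusted p = 0.0476 by limma), iYPRCdelta19 without Ifh1 untreated replicate 3 (1.04, adjusted p = 0.0361 by limma) and iYHRWdelta7 without Fhl1 rapamycin replicate 4 (0.65, adjusted p = 0.0382 by limma). With a term for the range of array medians, added after seeing the data, 2 were called with Ifh1 untreated (iYHRWdelta7, 1.10, adjusted p = 0.0323, and YIRCdelta6, -3.07, adjusted p = 0.022, both by limma). With a replicate block, 1 was called in the 12-array mean (iYPLWdelta11, -0.72, limma adjusted p = 0.0164, against -0.34 without the block) and 0 elsewhere. The deviations of same-numbered arrays had r over 0.1 in 5 of 19 pairs (-0.23 to 0.38), and those of differently numbered arrays in 12 of 64 (-0.32 to 0.33); as not every same-numbered pair exceeded 0.1, the numbers were not taken to pair arrays. When leaving out an array brought a call for iYCRCdelta14 or iYPRCdelta19, that array belonged to another group. Their fitted means stayed at -1.83 and 1.04, while the SE, from a spread shared by all groups, fell to 0.40 and 0.23. The cause of the other changes was not tested. All 8 sign patterns of the Ifh1 rapamycin arrays left 0 calls. Over these patterns 19 of 96 fitted values of named members changed sign.

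Without centring, the LTR medians became 0.0905, 0.42 and -0.19 for Fhl1 untreated, Ifh1 untreated and Ifh1 rapamycin, 0.15 over 12 arrays and 0.23 over 15, with SDs over arrays of 0.941 to 1.25, since the array medians then enter. Leaving out each array moved the median to -0.02 to 0.02, -0.04 to 0.03, 0.02 to 0.09 and -0.03 to 0.05 in the 4 groups, to 0.01 to 0.03 over 12 arrays and to 0.05 to 0.07 over 15; the spread ratio of repeats ran from 0.739 to 0.777 over 15 arrays. With signs as deposited, 17 of 30 fitted values of named members changed sign, and none is called on either side. Leaving out LTRs beside RP genes was not run, since the probe names give no neighbours.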
